A study of Arabidopsis thaliana with 12 samples.

Results

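The question was where in the measured windows the response to knockdown of the RNA exosome differed between RNA selected for a poly(A) tail and RNA freed only of ribosomal RNA. For each strand of each window the change in ribo-minus RNA (induced minus uninduced, log2) was taken, and the change in poly(A)+ RNA was subtracted from it. A negative difference therefore means a more positive change in poly(A)+ RNA. The series holds 1919 windows of putative enhancers, each 3000 bp long, with 3838 strands. After 3 windows on chromosome 5 were left out, 2334 of 3832 strands had signal above a floor of 1005 in at least 3 of 11 libraries and were tested. Limma called 16 of them at an adjusted p under 0.05 (0.686%), which form 14 loci once windows that overlap on a strand are joined. No measured response was used to choose the tested strands, but 115 were above the floor in just 3 libraries, among them 2 of the called strands, and 194 missed the filter with 2 libraries.

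All libraries came from 7-day-old seedlings of Arabidopsis thaliana carrying the RRP41-iRNAi construct, an RNA interference transgene that 17b-estradiol switches on. Induced seedlings (rrp41-i) were germinated and grown on 1/2 MS plates with the hormone, at 8 mM as labelled. Uninduced seedlings, labelled RRP41 and also WT, came from the same line and served as the control. There were 3 biological replicates of each, and a ribo-minus and a poly(A)+ library were made from each total RNA, which gives 4 groups and 12 libraries. In ribo-minus uninduced replicate 1 both strands of every window held the same value (100% of windows with signal), so it was left out and that group has n = 2. The hormone, the transgene's induction and the loss of RRP41 cannot be told apart in this design, and no library without the transgene was used here.

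The exosome is a ring of core subunits, RRP41 among them, which with its associated nucleases degrades or trims RNA from the 3′ end. In the nucleus its substrates include precursors and by-products of small nuclear RNAs (snRNAs, the RNA parts of the spliceosome), small nucleolar RNAs (snoRNAs, which guide chemical modification of ribosomal RNA) and antisense transcripts. Mature U1, U2, U4 and U6 snRNAs and most mature snoRNAs carry no poly(A) tail, so poly(A) selection removes most of them, while depletion of ribosomal RNA leaves them in. Short poly(A) tails added to exosome substrates are known from yeast and plants.

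The sequences below belong to 4 of the snRNA genes that the results turn on. Each runs 5′ to 3′ from 100 bases before the RNA start to 40 bases into the RNA, and was read from RefSeq's TAIR10.1 assembly, whose nuclear chromosomes are those of TAIR10. Capitals mark TATAAA and TCCCACATCG, the 10-base word found before the most annotated snRNA genes (29 of 82, 35.4%) and the core of the upstream sequence element known from plant snRNA promoters. Both were marked on the RNA strand, and the counts over all annotated nuclear genes below used both strands. U2 starts were placed by the first 30 bases of the annotated U2.10b/12 RNA, which occur at 16 sites of the genome.
U2.6 (chr3:21004393-21004532, plus strand): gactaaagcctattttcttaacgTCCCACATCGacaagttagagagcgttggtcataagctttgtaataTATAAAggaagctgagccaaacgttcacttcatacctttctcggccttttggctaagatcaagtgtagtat
U2.3 (chr3:21397579-21397718, minus strand): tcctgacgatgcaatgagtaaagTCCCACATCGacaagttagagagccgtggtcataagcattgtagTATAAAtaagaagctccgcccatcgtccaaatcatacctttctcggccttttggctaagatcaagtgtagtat
U2.10b/12 (chr2:852760-852899, plus strand): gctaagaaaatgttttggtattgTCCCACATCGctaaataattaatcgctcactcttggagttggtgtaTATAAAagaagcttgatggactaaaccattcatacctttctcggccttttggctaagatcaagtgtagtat
U1.7 (chr3:1657667-1657806, plus strand): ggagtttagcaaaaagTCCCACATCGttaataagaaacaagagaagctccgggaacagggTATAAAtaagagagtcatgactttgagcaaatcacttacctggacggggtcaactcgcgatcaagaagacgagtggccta
The element began 77 bases before the RNA start of all 3 U2 genes and 84 before U1.7, and TATAAA lay between the element and the RNA start in each. Within the annotated genes, the U2 RNA started 234 bases into U2.6 and 514 bases into U2.3. Over 195 bases U2.6 shared 187 bases (95.9%) and U2.3 shared 192 (98.5%) with U2.10b/12, so reads at one of these genes may come from another. Of 37897 annotated nuclear genes, 70 (0.185%) held the element and 23.7% held TATAAA in the 100 bases before their start. The element occurred on 26 window strands, of which 17 were tested and 6 were among the 16 called, a count made after the calls were known. These 6 count U2.6 and the strand opposite ACT8 in overlapping windows, and the others are U2.3 and AT4G06145. Over all tested strands 0.686% were called.

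The whole-series facts that bear on these values are few. Total signal without the 3 left-out windows ran from 19606270 to 23770709 in induced and 21972524 to 22677162 in the 2 usable uninduced ribo-minus libraries, and from 54660059 to 57182302 in induced and 55690750 to 58348077 in uninduced poly(A)+ libraries. In the 1122 such windows with genes on 1 strand, the gene's strand held 95.7 to 96.6% of signal in induced ribo-minus libraries and 96.5 to 98.6% in the other libraries with separated strands. The smallest value above 0 ranged from 107 to 1005, read numbers are unknown, and no counting interval can be given. RRP41 itself lay in none of the windows, and its own level was therefore not seen. The tissue label could not be checked, since 0 of 17 light-harvesting and Rubisco genes, 1 of 11 root markers (ESB1) and 0 of 7 shoot meristem and stomatal markers lay in a window. In bulk seedlings, fewer cells of a type and less RNA per cell cannot be told apart.

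On the floored scale most calls were negative. The difference was below 0 at 15 strands (0.643% of those tested) from 13 loci and above 0 at 1 strand (0.0428%). Without a floor 24 strands were called, 15 positive and 9 negative, so this split depends on the floor. At 13 strands from 11 loci the poly(A)+ signal rose after induction while the ribo-minus change was not called, at 2 strands the ribo-minus signal fell while the poly(A)+ change was not called, and at 1 strand the poly(A)+ signal fell alone. At 0 strands were both changes called. Among all tested strands, limma called the ribo-minus change at 168 (7.20%), 28 up (1.2%) and 140 down (6.0%). It called the poly(A)+ change at 151 (6.47%), 76 up (3.26%) and 75 down (3.21%). Strands called in both fractions, such as that of U1.7, are in both counts. With median-ratio scaling of the libraries these counts were 114 up and 200 down in ribo-minus and 94 up and 50 down in poly(A)+ RNA. The median difference over all tested strands was −0.11, the median change −0.18 in ribo-minus and −0.06 in poly(A)+ RNA (log2).

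**Figure D1:**
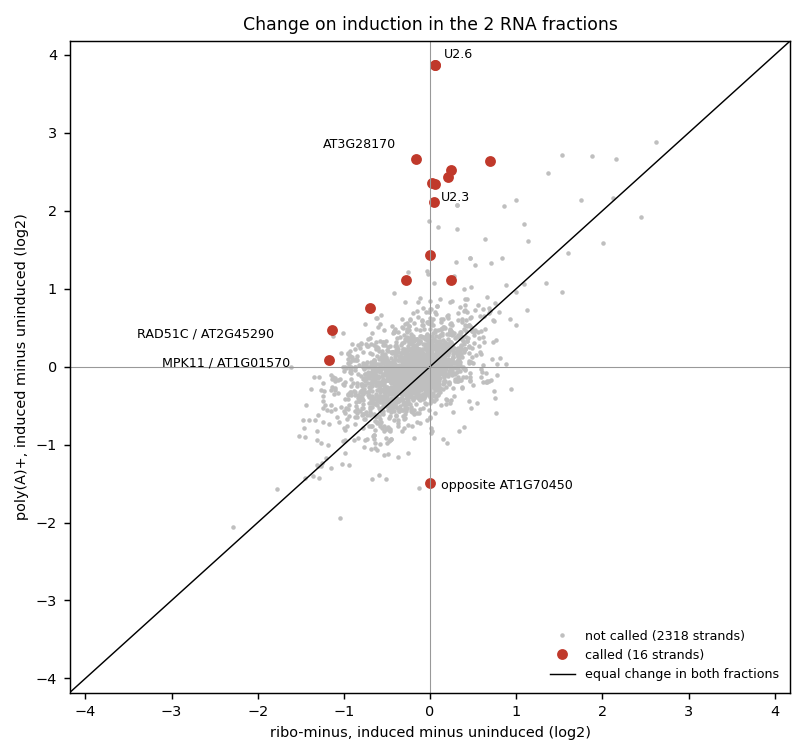
Change on induction (induced minus uninduced, log2 of signal raised to the floor) in ribo-minus RNA on the horizontal axis and in poly(A)+ RNA on the vertical axis for the 2334 tested strands, with the 16 called strands in red and a line where both changes are equal. Most called strands sit well above the line near a ribo-minus change of 0, with U2.6 highest at 3.87 in poly(A)+ RNA and the strand opposite AT1G70450 alone below it.

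The called strands differed in how far they depend on the floor. Ribo-minus signal was above the floor in all 5 libraries at 9 of them (7 loci), and 5 were above it in all 11 libraries. Among all 2334 tested strands, these numbers were 1696 and 1650, so strands that touch the floor were more common among the calls. At 8 called strands (7 loci) all 3 uninduced poly(A)+ libraries were at or below the floor, so their rise is understated by an unknown amount. Of the 16 strands 2, AT4G06145 and the strand opposite AT1G70450, were above the floor in 1 group only and passed the filter through that group, as did 3 tested strands in all; their calls are no independent evidence. Induced and uninduced poly(A)+ libraries did not overlap at 15 of the 16 strands, against 32.8% of all tested, and ribo-minus libraries did not overlap at 7, against 33.8%. The strands were called from these same values, so separation of their groups is partly built in and is no separate support.

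The largest difference lay at U2.6, a gene for the U2 snRNA, which pairs with the branch point of introns (plus strand of chromosome 3, 21002933 to 21005932). Ribo-minus signal was 230663, 263325 and 205147 in induced and 219852 and 227472 in uninduced seedlings. In poly(A)+ RNA it was 16032, 16328 and 37167 in induced and 1026, 2269 and 1332 in uninduced seedlings. The ribo-minus groups overlapped, whereas every induced poly(A)+ library was above every uninduced one, with induced replicate 3 the highest. The change was 0.05 ± 0.35 in ribo-minus and 3.87 ± 0.31 in poly(A)+ RNA (log2, SE; adjusted p = 1.08e-05, 14.6-fold), and the difference −3.82 ± 0.47 (adjusted p = 0.00281). A second called window, 21003183 to 21006182, covers the same gene and gave the same values, so it adds no evidence. This call held in each of the 9 alternatives and each of the 11 fits with a library left out, with an adjusted p of at most 0.0376.

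U2.3, a further U2 gene on chromosome 3 (minus strand, 21396213 to 21399212), showed the same arrangement. Ribo-minus signal was 751260, 907579 and 676143 in induced and 823612 and 705509 in uninduced seedlings. The poly(A)+ libraries held 69997, 74191 and 128506 in induced and 12307, 23194 and 17267 in uninduced seedlings. Again the ribo-minus groups overlapped, the poly(A)+ groups did not, and replicate 3 was the highest of the induced poly(A)+ libraries. The change was 0.02 ± 0.27 in ribo-minus and 2.36 ± 0.24 in poly(A)+ RNA (adjusted p = 6.54e-05, 5.13-fold), and the difference −2.34 ± 0.37 (adjusted p = 0.00977). Without ribo-minus uninduced replicate 2 the adjusted p was 0.0843, without the filter 0.0881, and with the strand-mixed library included 0.51.

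The strand opposite ACT8, an actin gene of vegetative tissue, and AT1G49245, a gene of the prefoldin chaperone family, showed the same arrangement as the U2 genes. RefSeq annotates no gene on the minus strand of chromosome 1 between 18217270 and 18220269. Ribo-minus signal there was 29251, 46218 and 21428 in induced and 25381 and 26508 in uninduced seedlings. The poly(A)+ values were 6310, 4759 and 6354 in induced and 564, 478 and 530 in uninduced seedlings, the uninduced values all below the floor. Groups overlapped in ribo-minus RNA and not in poly(A)+ RNA. The change was 0.24 ± 0.26 in ribo-minus and 2.52 ± 0.24 in poly(A)+ RNA (adjusted p = 2.84e-05), and the difference −2.27 ± 0.35 (adjusted p = 0.00977). The overlapping window that starts at 18216663 gave −2.22 ± 0.35 (adjusted p = 0.00996). With the RNA sample as a block the adjusted p was 0.0597 for both windows, and without ribo-minus uninduced replicate 2 it was 0.0776 and 0.0843. For the first window it was 0.169 with a floor 2 times as high, 0.11 with median-ratio scaling and 0.0533 without the filter.

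This unannotated strand held a close match to the U4 snRNA, which pairs with U6 in the assembling spliceosome. All 3838 window strands were searched with annotated snRNA and snoRNA genes (blastn, at least 90% identity over at least 80% of the gene), a search made after the calls were known. Between 18218533 and 18218685 on the minus strand, 149 of 153 bases (97.4%) were those of U4.6, and U4.2 matched to the same extent over a stretch shifted by a few bases. In all, 5 annotated U4 genes matched here. The sequence is shown from the upstream element to the end of the match to U4.6, with the element and TATAAA in capitals, 79 and 35 bases before the match.
U4-like stretch (chr1:18218533-18218764, minus strand): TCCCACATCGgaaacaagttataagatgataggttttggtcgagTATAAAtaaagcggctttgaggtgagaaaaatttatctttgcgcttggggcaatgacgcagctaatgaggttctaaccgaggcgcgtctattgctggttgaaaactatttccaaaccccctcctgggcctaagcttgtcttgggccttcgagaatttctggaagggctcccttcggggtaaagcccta
The nearest annotated gene upstream on this strand was U4.4, 1933 bp beyond the end of the window. Signal is summed over 3000 bp, so whether it comes from the U4-like stretch was not tested. Reads on that stretch may also come from U4 genes elsewhere.

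The search found 2 further tested strands with a match where no snRNA or snoRNA is annotated, and neither was called. At AT3G08565, an RNA gene of unnamed type that shares its strand with AT3G55640 and matched U5.6 in 99 of 101 bases (98.0%), ribo-minus signal was 7488, 3964 and 4947 in induced and 2382 and 3427 in uninduced seedlings. Poly(A)+ signal was 10888, 8727 and 11089 in induced and 8691, 10150 and 11046 in uninduced seedlings, and the difference was 0.85 ± 0.36 (adjusted p = 0.525). At AT5G09935, which matched U2.10 in 188 of 195 bases (96.4%) and shares its strand with ARLA1D, the difference was −0.17 ± 0.23 (adjusted p = 0.897). Both strands also hold a protein-coding gene, whose signal cannot be told apart from that of the match. Reads at the matches may also come from other copies.

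A cluster of small RNA genes next to AT3G17090, a protein phosphatase gene, was the called snoRNA locus (chromosome 3, 5828015 to 5831014, minus strand). It holds snoRNA genes AT3G03415, AT3G03425 and AT3G03445 and the long noncoding RNA gene AT3G03435. Sequences of the 2 shortest are shown, with TGATGA and CTGA, the core letters of boxes C and D of methylation-guide snoRNAs, in capitals.
AT3G03415 (chr3:5830003-5830095, minus strand): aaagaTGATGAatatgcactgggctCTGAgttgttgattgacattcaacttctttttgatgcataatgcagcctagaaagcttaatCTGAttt
AT3G03425 (chr3:5830166-5830231, minus strand): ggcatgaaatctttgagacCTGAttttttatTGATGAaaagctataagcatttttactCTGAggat
Both motifs occurred on the RNA strand of 139 of 287 annotated snoRNA genes (48.4%), and in the first 93 bases of 1.14% of protein-coding genes.

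At this cluster both fractions were higher after induction, poly(A)+ RNA more so. Ribo-minus signal was 4491, 5695 and 5639 in induced and 3316 and 3184 in uninduced seedlings. In poly(A)+ RNA it was 6868, 4847 and 7331 in induced and 741, 343 and 441 in uninduced seedlings. The groups overlapped in neither fraction. The change was 0.69 ± 0.23 in ribo-minus (adjusted p = 0.0915, not called) and 2.64 ± 0.21 in poly(A)+ RNA (adjusted p = 1.08e-05), and the difference −1.95 ± 0.31 (adjusted p = 0.00996). With the RNA sample as a block its adjusted p was 0.0869, and without ribo-minus uninduced replicate 2 it was 0.0776. With a floor 2 times as high it was 0.171 and with median-ratio scaling 0.15.

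Of 10 strands with an annotated snRNA gene, 8 were tested and 3 were called, all negative, with a median difference of −1.42, against 0.686% called and a median of −0.11 over all tested strands. These 3 are U2.3 and the same U2.6 values in 2 windows. Of 6 with an annotated snoRNA gene, 6 were tested and 1 was called, with a median of −0.26. U2.10b/12 lies on the plus strand of chromosome 2, in the window from 850815 to 853814, within the long noncoding RNA gene AT2G04435. The signals of these genes cannot be told apart. This strand had ribo-minus signal of 22899, 33263 and 24086 in induced and 36903 and 16562 in uninduced seedlings. Its poly(A)+ signal was 3564, 1812 and 6459 in induced and 0, 1007 and 589 in uninduced seedlings. The uninduced values of 0 and 589 lay below the floor, so the poly(A)+ change is understated. The poly(A)+ rise was called (1.79 ± 0.39, adjusted p = 0.0161), but the difference of −1.69 ± 0.59 was not (adjusted p = 0.387), and its libraries scattered more than those of U2.6 and U2.3 as the larger SE shows.

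U6-26, a gene for the snRNA at the catalytic centre of the spliceosome, shares its strand with LBD22 and AT3G13857. Ribo-minus signal was 1825, 2274 and 3416 in induced and 1408 and 1048 in uninduced seedlings. The poly(A)+ libraries held 5440, 4086 and 3888 in induced and 418, 792 and 353 in uninduced seedlings. All these uninduced values lay below the floor, so the poly(A)+ change is understated. Here both fractions rose (0.99 ± 0.27, adjusted p = 0.0475, in ribo-minus and 2.14 ± 0.24, adjusted p = 0.000135, in poly(A)+ RNA), and the difference of −1.14 ± 0.37 was not called (adjusted p = 0.314).

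U1.7, for the U1 snRNA that recognises the 5′ splice site, gave a difference of the other sign on a strand it shares with AT3G05670. Ribo-minus signal was 37820, 30329 and 34174 in induced and 14241 and 9730 in uninduced seedlings. The poly(A)+ values were 23164, 25250 and 36954 in induced and 13894, 14773 and 14516 in uninduced seedlings. Both fractions rose without overlap (1.53 ± 0.20, adjusted p = 0.00162, and 0.95 ± 0.18, adjusted p = 0.00593), and the difference of 0.58 ± 0.27 was not called (adjusted p = 0.566).

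The snoRNA pair AT5G06565 and AT5G44286 on chromosome 5 rose in both fractions. Ribo-minus signal was 7244, 6194 and 6450 in induced and 2123 and 2235 in uninduced seedlings, and poly(A)+ signal was 3560, 2755 and 2145 in induced and 313, 482 and 459 in uninduced seedlings. The change was 1.60 ± 0.23 in ribo-minus (adjusted p = 0.00269) and 1.46 ± 0.21 in poly(A)+ RNA (adjusted p = 0.000924), with a difference of 0.14 ± 0.31 (adjusted p = 0.936). The 3 uninduced poly(A)+ values lay below the floor, so the poly(A)+ change is understated, and without a floor the difference was −1.14. The remaining tested strands of this kind were not called and lay between −0.52 and 0.65. They hold AT4G08325 (−0.52 ± 0.25), AT1G04527 (−0.36 ± 0.16), AT1G08353 (−0.15 ± 0.21), U4.5 with U1.4 (−0.02 ± 0.20), AT1G09027 (0.31 ± 0.21) and U6.6 (0.65 ± 0.35). Each of them shares its strand with a protein-coding gene, whose signal cannot be told apart from theirs. U2.13 and U5.1* had too little signal to be tested.

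**Figure D2:**
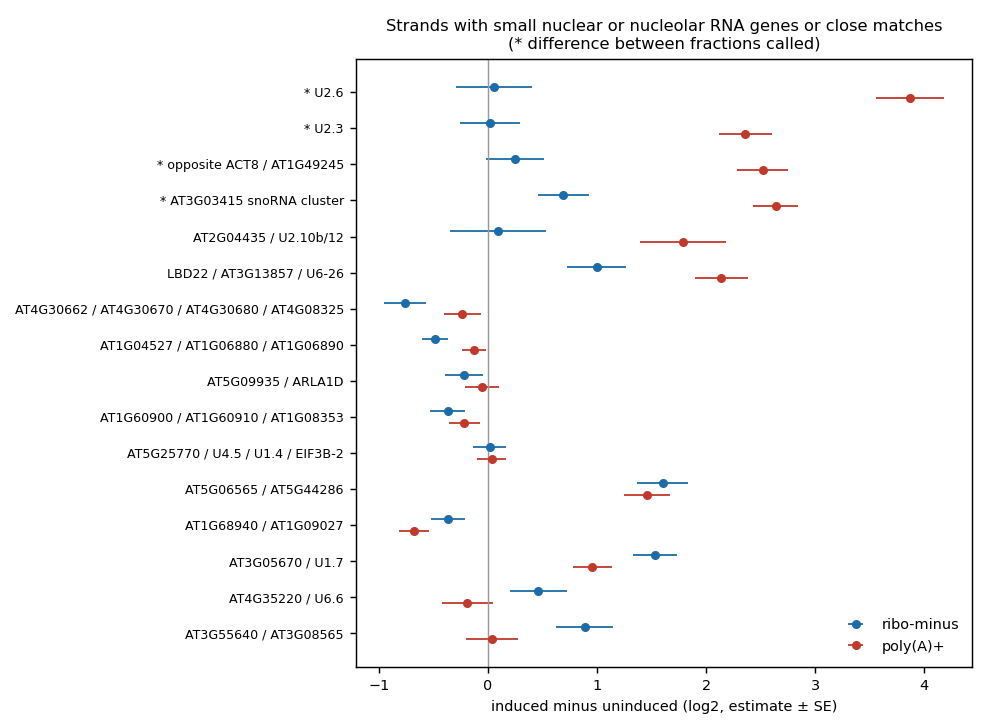
Change on induction (log2, estimate ± SE) in ribo-minus RNA (blue, upper point) and poly(A)+ RNA (red, lower point) for each tested strand with an annotated snRNA or snoRNA gene or a close match to one, ordered by the difference between fractions. U2.6, U2.3, the U4-like strand and the AT3G03415 cluster are the called ones, and U2.6 has the widest gap, 0.05 against 3.87.

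Besides the strand opposite ACT8, strands with no annotated gene gave 3 called loci. In this class 146 of 1122 strands were tested, 4 were called negative and 1 positive (3.42%, against 0.686% of all tested strands), with a median difference of −0.30. Of the 4 negative ones, 2 are the overlapping windows opposite ACT8. On chromosome 5 (16721139 to 16724138, minus strand), opposite AT5G41770, which encodes a crooked neck-like protein, and AT5G41780, a myosin heavy chain-like gene, ribo-minus signal was 1122, 537 and 982 in induced and 0 in both uninduced libraries. Poly(A)+ signal was 5557, 3592 and 6593 in induced seedlings and 0 in all 3 uninduced libraries. The strand was thus listed at 0 in every uninduced library and was well above the floor in induced poly(A)+ RNA. It passed the filter through induced libraries alone, so its call is no independent evidence of a rise. The difference was −2.29 ± 0.31 on the floored scale (adjusted p = 0.00368), and the poly(A)+ change 2.34 ± 0.21 (adjusted p = 1.87e-05). Without a floor the difference was not called (−2.60, adjusted p = 0.881), nor with median-ratio scaling (adjusted p = 0.244). The nearest annotated gene upstream on the strand, the long noncoding RNA gene AT5G06205, ends 1404 bp beyond the window.

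Opposite AT4G18030, a gene of the methyltransferase superfamily, the changes had opposite signs (chromosome 4, 10011310 to 10014309, plus strand). Ribo-minus signal was 1337, 1087 and 921 in induced and 1810 and 1863 in uninduced seedlings. In poly(A)+ RNA it was 2105, 1595 and 1447 in induced and 752, 603 and 550 in uninduced seedlings. Induced libraries were all lower in ribo-minus RNA and all higher in poly(A)+ RNA, without overlap. The ribo-minus change was −0.69 ± 0.20 (adjusted p = 0.0531, not called), the poly(A)+ change 0.75 ± 0.18 (adjusted p = 0.0228) and the difference −1.45 ± 0.26 (adjusted p = 0.0226). The call was lost with the RNA sample as a block (adjusted p = 0.0927), with median-ratio scaling (0.25) and without a floor (0.108). Of 11 fits with a library left out, the call held in 3 (without poly(A)+ induced replicate 2 or 3 or ribo-minus induced replicate 1), and the others gave 0.0525 to 0.0893. An overlapping window that starts at 10010773 gave −1.25 ± 0.28 and was not called (adjusted p = 0.0898).

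The strand opposite AT1G70450, a protein kinase gene, held the single positive difference (chromosome 1, 26550752 to 26553751, minus strand). Ribo-minus signal was 0, 143 and 178 in induced and 0 in both uninduced libraries, so this fraction was below the floor throughout. The poly(A)+ libraries held 901, 725 and 0 in induced and 3658, 2518 and 2475 in uninduced seedlings. The poly(A)+ fall of −1.50 ± 0.17 (adjusted p = 0.000135) therefore equals the difference of 1.50 ± 0.25 (adjusted p = 0.0137), with no ribo-minus value to set against it. The call was lost with a floor 2 times as high (adjusted p = 0.526) and without ribo-minus uninduced replicate 2 (0.0843) or ribo-minus induced replicate 2 (0.0559). It was also lost without a floor (0.659), with median-ratio scaling (0.25) and with the strand-mixed library included (0.101). SRO3, a gene on the same strand, lies 116 bp downstream of the window.

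AT4G06145, a long noncoding RNA gene on chromosome 4 (window 8028648 to 8031647, plus strand), lies opposite AT4G13885, of the ribonuclease H-like superfamily. Ribo-minus signal was 0, 971 and 357 in induced and 0 in both uninduced libraries. The poly(A)+ values were 2884, 2066 and 3384 in induced and 0, 0 and 707 in uninduced seedlings. Only induced poly(A)+ libraries passed the floor, and the difference of −1.44 ± 0.27 (adjusted p = 0.0231) mirrors the poly(A)+ rise of 1.44 ± 0.18 (adjusted p = 0.00026). Of 46 tested strands with other noncoding genes alone, this was the 1 called (2.17%). Of the 8 fits with a library left out that could test it, 1 kept the call (without ribo-minus induced replicate 1) and the others gave adjusted p of 0.0629 to 0.0973. With the RNA sample as a block it was 0.204, with the replicate number as a block 0.0541 and without a floor 0.935, and the difference shrank to −0.44 with a doubled floor (adjusted p = 0.636) and −0.51 with median-ratio scaling (0.638). The strand carries the upstream element, without TATAAA in the next 60 bases.

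**Figure D3:**
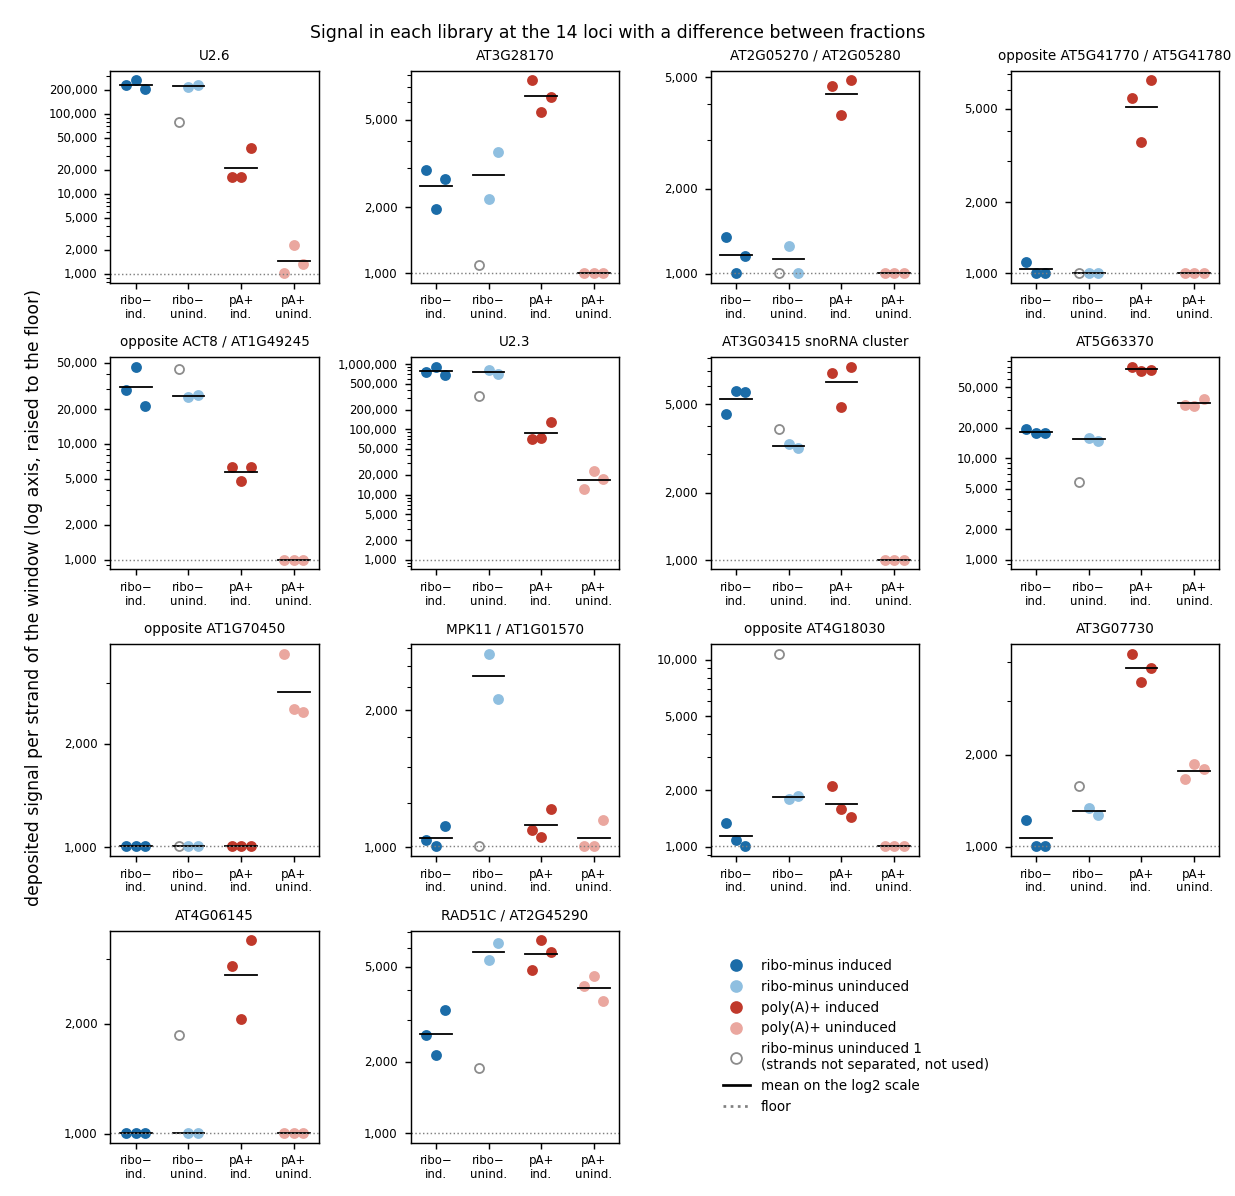
Signal per strand in each library at the 14 loci (log axis, values raised to the floor of 1005, dotted line), with ribo-minus groups in blue and poly(A)+ groups in red, induced left of uninduced, and the mean on the log2 scale as a bar. Open circles are the ribo-minus library whose strands were not separated and that was not used. At U2.6, U2.3 and opposite ACT8 the blue groups are level while the induced poly(A)+ points stand above the uninduced ones.

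Among strands with a protein-coding gene, 6 of 2128 were called, all negative (0.282%), with a median difference of −0.10. AT3G28170, an uncharacterized gene on chromosome 3 (window 10499648 to 10502647, plus strand), had the largest of these. Ribo-minus signal was 2957, 1971 and 2672 in induced and 2186 and 3558 in uninduced seedlings. Poly(A)+ signal was 7546, 5421 and 6322 in induced and 990, 515 and 899 in uninduced seedlings. Ribo-minus groups overlapped, while every induced poly(A)+ library was well above the floor and every uninduced one below it. The change was −0.16 ± 0.27 in ribo-minus and 2.66 ± 0.24 in poly(A)+ RNA (adjusted p = 1.87e-05, 6.34-fold), and the difference −2.82 ± 0.36 (adjusted p = 0.00281). The call held in all 11 fits with a library left out and in 8 of 9 other alternatives, the exception being the fit with the strand-mixed library (adjusted p = 0.148).

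AT2G05270 and AT2G05280, both of unknown function and the second annotated as a pseudogene, share the minus strand of chromosome 2 between 1918809 and 1921808. Ribo-minus signal was 1349, 914 and 1154 in induced and 1257 and 0 in uninduced seedlings. In poly(A)+ RNA it was 4645, 3662 and 4876 in induced and 391, 381 and 614 in uninduced seedlings. Ribo-minus values were close to the floor in 4 libraries and 0 in uninduced replicate 3, and the poly(A)+ groups did not overlap. The poly(A)+ rise was 2.12 ± 0.18 (adjusted p = 1.81e-05) and the difference −2.07 ± 0.28 (adjusted p = 0.00346). Because uninduced ribo-minus replicate 3 was listed at 0, the difference turned to 1.72 without a floor (adjusted p = 0.88), and with median-ratio scaling the adjusted p was 0.276.

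AT5G63370, a protein kinase gene on chromosome 5 (window 25382254 to 25385253, minus strand), was the called protein-coding strand whose libraries were all far above the floor. Ribo-minus signal was 19345, 17580 and 17730 in induced and 15897 and 14799 in uninduced seedlings. The poly(A)+ libraries held 79270, 71585 and 74490 in induced and 33150, 32565 and 38733 in uninduced seedlings. Induced libraries were higher without overlap in both fractions, by 0.25 ± 0.11 in ribo-minus (adjusted p = 0.187, not called) and 1.11 ± 0.10 in poly(A)+ RNA (adjusted p = 1.81e-05, 2.16-fold). The difference was −0.87 ± 0.15 (adjusted p = 0.0137), and the adjusted p with the RNA sample as a block was 0.0597. Without poly(A)+ uninduced replicate 1 or 2, poly(A)+ induced replicate 1, or replicate 2 of either ribo-minus group, the adjusted p was 0.0533 to 0.0843.

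AT3G07730, an uncharacterized gene opposite ADA2A, a coactivator of histone acetylation complexes, lies on chromosome 3 (window 2468497 to 2471496, plus strand). Ribo-minus signal was 1220, 763 and 588 in induced and 1341 and 1270 in uninduced seedlings. The poly(A)+ values were 4276, 3452 and 3823 in induced and 1661, 1859 and 1799 in uninduced seedlings. Ribo-minus values were lower and poly(A)+ values higher in induced seedlings, without overlap in either. The poly(A)+ rise was 1.11 ± 0.17 (adjusted p = 0.0016), the ribo-minus change −0.28 ± 0.19 (adjusted p = 0.401) and the difference −1.40 ± 0.26 (adjusted p = 0.0226). With the RNA sample as a block the adjusted p was 0.212, and with the replicate number as a block 0.0541. Without a floor it was 0.181, with a filter of 6 libraries 0.0532 and with the strand-mixed library included 0.148. Leaving out poly(A)+ induced replicate 2, ribo-minus uninduced replicate 3 or ribo-minus induced replicate 1 kept the call, and leaving out any other library gave 0.0581 to 0.0934.

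At the other 2 called protein-coding strands the ribo-minus signal fell. MPK11, a mitogen-activated protein kinase gene whose product responds to bacterial flagellin, shares the plus strand of chromosome 1 with AT1G01570 (window 202982 to 205981). Ribo-minus signal was 1035, 833 and 1113 in induced and 2668 and 2117 in uninduced seedlings. Poly(A)+ signal was 1094, 1051 and 1213 in induced and 760, 990 and 1146 in uninduced seedlings. The 2 uninduced ribo-minus libraries stood above the 9 others, which lay between 760 and 1213. The ribo-minus fall was −1.18 ± 0.17 (adjusted p = 0.00269), the poly(A)+ change 0.09 ± 0.15 (adjusted p = 0.807) and the difference −1.27 ± 0.23 (adjusted p = 0.0194). The call was lost with the RNA sample (adjusted p = 0.212) and the replicate number (0.0633) as a block. Without a floor the adjusted p was 0.43, with median-ratio scaling 0.119 and with a filter of 6 libraries 0.079. With the strand-mixed library included it was 0.836, so the call was lost in these fits too. It was also lost without poly(A)+ uninduced replicate 1 or 2, poly(A)+ induced replicate 1 or 3, or replicate 2 of either ribo-minus group (0.0529 to 0.0893).

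RAD51C, which acts in repair of DNA by homologous recombination, shares the plus strand of chromosome 2 with AT2G45290, a transketolase gene (window 18670816 to 18673815). Ribo-minus signal was 2583, 2126 and 3284 in induced and 5345 and 6261 in uninduced seedlings. In poly(A)+ RNA it was 4844, 6460 and 5765 in induced and 4136, 4559 and 3585 in uninduced seedlings. All values were above the floor, and the groups did not overlap in either fraction. The ribo-minus fall was −1.14 ± 0.24 (adjusted p = 0.0178), the poly(A)+ change 0.47 ± 0.21 (adjusted p = 0.25) and the difference −1.61 ± 0.32 (adjusted p = 0.0387). The call was lost with the RNA sample as a block (adjusted p = 0.212) and the replicate number as a block (0.106). It held only when ribo-minus induced replicate 1 or 3 was left out, and leaving out any other library gave 0.0533 to 0.144.

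Just past the threshold, AT5G11310, a gene of the pentatricopeptide repeat family (−1.52 ± 0.33, adjusted p = 0.073), and AT3G25012 with AT3G25013 (−1.89 ± 0.42, adjusted p = 0.0898) were not called. The smallest p among positive differences not called belonged to ABCG30 with ABCG42, a pair of transporter genes, where ribo-minus signal was 6849, 6471 and 4207 in induced and 7505 and 5190 in uninduced seedlings. The poly(A)+ libraries held 2036, 1992 and 1867 in induced and 4674, 5101 and 8052 in uninduced seedlings, and only this fraction fell (−1.55 ± 0.26, adjusted p = 0.00317). The difference of 1.43 ± 0.39 had an adjusted p of 0.192, as did those of UGT80B1, a sterol glucosyltransferase gene (1.05 ± 0.29), and AT1G29810, a gene described as a transcriptional coactivator or pterin dehydratase (1.22 ± 0.34). At both the ribo-minus signal was higher in all 3 induced libraries than in the 2 uninduced ones.

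Genes of the exosome and of other functional lists were too few to read against the 0.686% called over all tested strands. Of 17 exosome subunits and cofactors, 2 lay in windows. EMB2763, which encodes the RRP44A nuclease, had a difference of 0.18 ± 0.22 (adjusted p = 0.878), and CER7, a core subunit known for its role in wax synthesis, one of −0.04 ± 0.23 (adjusted p = 0.971). Limma called 0 of 22 strands with ribosomal protein genes (3 at an unadjusted p under 0.05), 0 of 7 with histone genes (1), 0 of 36 with heat shock or chaperone genes (1), 0 of 32 with ribonuclease or RNA helicase genes (0) and 0 of 65 with transcription factor genes (4), against 204 of all 2334 strands at an unadjusted p under 0.05. Their median differences lay between −0.19 and 0.08, against −0.11 over all tested strands. ESB1, a root endodermis gene of lignin deposition, changed by −1.27 ± 0.40 in ribo-minus (adjusted p = 0.0688) and −0.98 ± 0.35 in poly(A)+ RNA (adjusted p = 0.142), neither called, with a difference of −0.29 ± 0.53.

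The ratio of the fractions within each RNA sample gives the same data without averaging. With both values raised to the floor, ribo-minus signal at U2.6 was 14.4, 16.1 and 5.52 times the poly(A)+ signal in the 3 induced samples, against 96.9 and 171 times in the 2 uninduced ones. For U2.3 the ratios were 10.7, 12.2 and 5.26 in induced and 35.5 and 40.9 in uninduced samples. For both genes induced sample 3 had the lowest ratio, and induced and uninduced samples did not overlap. Such separation is partly built in, since the loci were called from these same values. Opposite ACT8 the ratios were 4.64, 9.71 and 3.37 in induced and 25.3 and 26.4 in uninduced samples. In the AT3G03415 cluster they were 0.654, 1.17 and 0.769 in induced and 3.30 and 3.17 in uninduced samples. Each library was scaled by the authors in a way not given in the sources used here, so the size of a ratio is not an amount of RNA, and only its change with induction is read here.

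**Figure D4:**
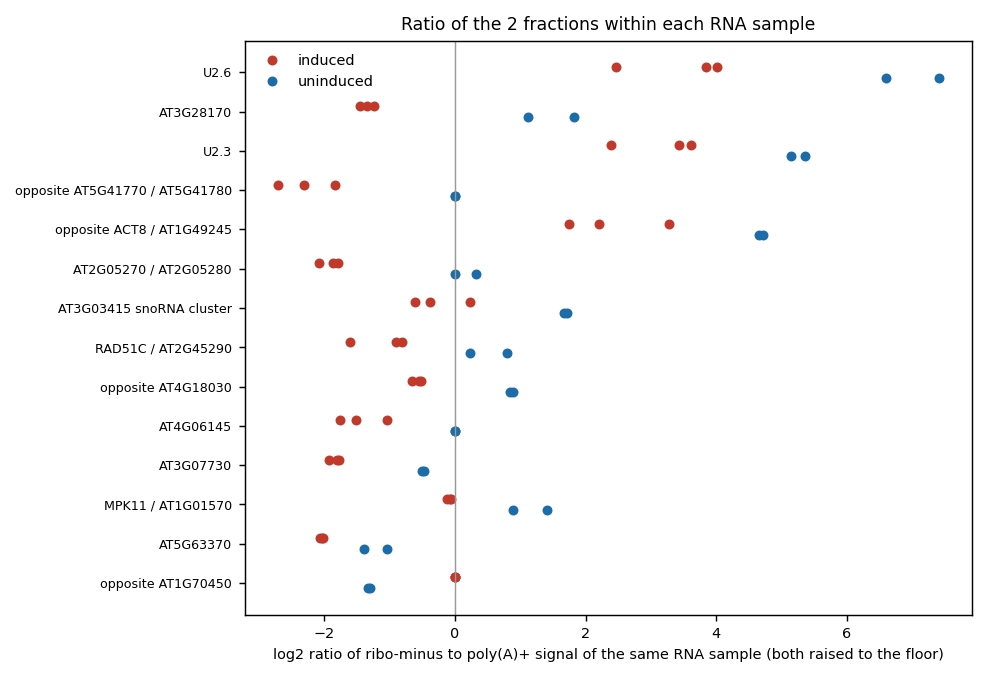
Log2 ratio of ribo-minus to poly(A)+ signal of the same RNA sample, both raised to the floor, for 3 induced (red, upper) and 2 uninduced (blue, lower) samples at each of the 14 loci. Induced samples lie left of uninduced ones at 13 loci and right of them opposite AT1G70450. The loci were called for this difference from the same values, so the separation is partly built in and is no separate support.

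With each RNA sample as a block, which uses 5 complete pairs, limma called 6 strands, all among the 16. These are both U2.6 windows, U2.3, AT3G28170, AT2G05270 with AT2G05280 and the strand opposite AT5G41780. The strand opposite AT1G70450 could not be tested in this fit.

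**Figure D5:**
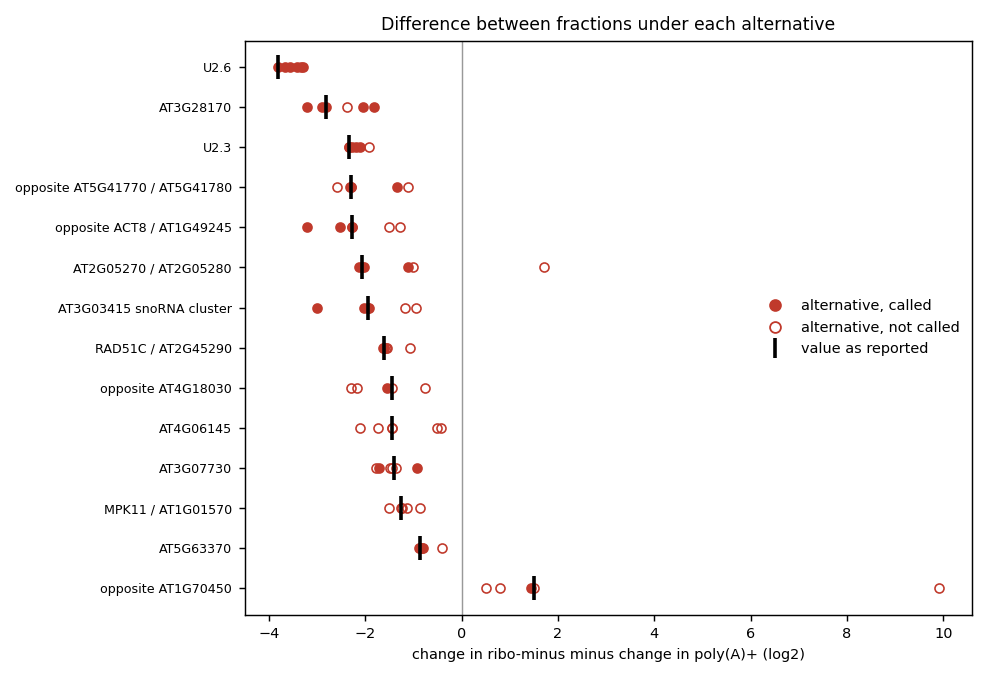
Difference between fractions at the 14 loci as reported (black bar) and under no floor, a floor 2 times as high, median-ratio scaling, the strand-mixed library included, and the replicate number or the RNA sample as a block (filled where called, open where not). U2.6 is filled throughout, and AT2G05270 with AT2G05280 crosses 0 at 1.72 without a floor. The strand opposite AT1G70450 reaches 9.91 without a floor but is not called there (SE 5.26, adjusted p = 0.659).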

How the data were processed

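Total RNA of 3 induced and 3 uninduced samples was split per the labels' protocols: ribo-minus libraries used Illumina's TruSeq Stranded Total RNA kit with Ribo-Zero Plant, poly(A)+ libraries its TruSeq Stranded mRNA kit. Per the submitters' processing notes, CASAVA 1.8.2, TopHat2 2.0.9, Cufflinks 2.1.1, Cuffdiff and the TAIR10 build were used. The deposited files give 1 signal value per window and strand; how the authors made and scaled it is not given in the sources used here, and depth is unknown.

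Values were raised to a floor of 1005 and put on a log2 scale, since small values differ in resolution between libraries (107 to 1005). Strands above the floor in at least 3 of 11 libraries were fitted with limma 3.58.1 (lmFit, eBayes with trend, R 4.3.3) on 4 group means; the difference of differences and both changes were tested two-sided with Benjamini-Hochberg adjustment over all 2334 strands, called under 0.05. Fold changes of values at or below the floor are understated. The fits were tested on simulated data with changes placed only in strands whose mean was well above the floor. Calls near the floor were not covered. Other steps ran in Python 3.11.15 with pandas 2.3.3, numpy 2.4.6 and matplotlib 3.10.9. Sequences and annotation came from RefSeq TAIR10.1.

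Alternatives were no floor, a doubled floor, no filter, a stricter filter (6 libraries), median-ratio scaling, no trend, all 12 libraries, a block on replicate number or RNA sample, summed strands and each library left out. Both libraries of a number came from the same RNA, so that number pairs fractions. Deviations from group means correlated by 0.16, 0.09 and 0.32 in induced pairs and 0.16 and 0.16 in uninduced pairs; the 2 uninduced ribo-minus libraries mirror each other by construction. Replicates are labelled biological. Every called strand was named, with all snRNA and snoRNA strands and the 3 nearest to the threshold on each side. Members and lists were chosen with earlier results of these data known. Further strands with a match to an snRNA gene were singled out after their values were seen. The upstream sequence of 1 further snRNA gene is not reported here.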

Additional observations from a re-analysis of the deposited data

Results flagged for a closer look

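Each called strand is by construction a difference between the fractions in the response to induction, and the interaction term was its test. The differences (ribo-minus change minus poly(A)+ change, log2) were −3.82 in both windows of U2.6, −2.82 at AT3G28170, −2.34 at U2.3, −2.29 opposite AT5G41770, −2.27 and −2.22 in the 2 windows opposite ACT8, −2.07 at AT2G05270, −1.95 at the AT3G03415 cluster, −1.61 at RAD51C, −1.45 opposite AT4G18030, −1.44 at AT4G06145, −1.40 at AT3G07730, −1.27 at MPK11, −0.87 at AT5G63370 and 1.50 opposite AT1G70450.

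The 3 windows on chromosome 5 that were left out carry signal on the minus strand that was far higher in induced libraries. Mean ribo-minus signal in the window that starts at 21820756, opposite MLO11, was 2774490 in induced and 0 in uninduced seedlings, and mean poly(A)+ signal was 271686 in induced and 0 in uninduced seedlings. In the window at 21859543, with AT5G53840 and AT5G53850, the ribo-minus means were 2791055 in induced and 16188 in uninduced seedlings, and the poly(A)+ means 323120 and 52990. At 21867321, with ENODL1, the ribo-minus means were 2774567 in induced and 0 in uninduced seedlings, and the poly(A)+ means 272342 in induced and 866 in uninduced seedlings. Ribo-minus induced replicate 1 held 2546540 both here and opposite MLO11, though these windows do not overlap. The 3 windows are therefore not read as separate rises. Opposite MLO11 the induced poly(A)+ libraries held 323173, 463837 and 28047, so the mean hides a wide spread.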

How the results depend on the processing

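Read depth is unknown, 1 uninduced ribo-minus library was unusable, and a value at or below the floor limits how large a change can appear. Limma called 16 strands for the difference between fractions. It called 27 without the filter (1 up, 26 down), 10 with the stricter filter, 7 with all 12 libraries, 7 windows with strands summed, 14 with median-ratio scaling (6 of the 16 among them) and 24 without a floor (15 up, 9 down, 9 of the 16 among them). Leaving out single libraries gave 5 to 29, with 5 without ribo-minus uninduced replicate 2 and 29 without ribo-minus uninduced replicate 3. With the RNA sample as a replicate block the count was 6, and with the replicate number as a block 12, all among the 16.

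In ribo-minus RNA the 168 calls became 107 with a doubled floor, 314 with median-ratio scaling, 5 with all 12 libraries and 49 to 353 with single libraries left out. In poly(A)+ RNA the 151 calls became 88 without a floor, 95 without the filter, 30 with all 12 libraries, 87 with strands summed and 85 to 201 with single libraries left out. At called strands, other alternatives kept 86 values on their side of the threshold, took 51 across it and reversed 1 (AT2G05270 without a floor, 1.72), and leaving out a library kept 121 and took 49 across it.

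Among strands not called, these reversed. With all 12 libraries AT1G04527 gave 0.32, AT4G08325 0.13, AT1G08353 0.24, AT5G06565 −0.62, U4.5 with U1.4 0.59, AT5G09935 0.63, ESB1 0.25 and CER7 0.50. Without a floor AT5G06565 gave −1.14, with median-ratio scaling U4.5 with U1.4 gave 0.049 and CER7 0.025, with a doubled floor ESB1 gave 0.075, and with the RNA sample as a block CER7 gave 0.016. With single libraries left out AT1G08353 ranged from −0.33 to 0.027, AT5G06565 from −0.037 to 0.33, U4.5 with U1.4 from −0.14 to 0.10, AT5G09935 from −0.28 to 0.019, ESB1 from −0.95 to 0.37 and CER7 from −0.19 to 0.048. The cause of these changes was not tested.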

Other observations

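Among strands with snRNA genes, limma called 6 of 8 up and 0 down in poly(A)+ RNA, and 2 up and 0 down in ribo-minus RNA. With snoRNA genes it called 2 of 6 up and 1 down in poly(A)+ RNA, and 1 up and 2 down in ribo-minus RNA. Over all tested strands 3.26% were called up and 3.21% down in poly(A)+ RNA, and 1.2% up and 6.0% down in ribo-minus RNA. The median poly(A)+ change was 1.96 for the snRNA strands, against −0.06 over all tested strands, and these strands share U2 copies and 1 gene measured in 2 windows.

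On strands without a gene opposite an annotated one, 12 of 146 were called up and 2 down in poly(A)+ RNA, and 3 up and 1 down in ribo-minus RNA. Strands with other noncoding genes alone gave 7 of 46 called up and 0 down in poly(A)+ RNA. These counts stand against the same shares over all tested strands, 3.26% up and 3.21% down in poly(A)+ RNA and 1.2% up and 6.0% down in ribo-minus RNA.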
